A study of Mus musculus with 4 samples.

Results

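Corticosteroid signalling was followed through 10 genes: the glucocorticoid receptor Nr3c1, the mineralocorticoid receptor Nr3c2, the enzymes Hsd11b1 and Hsd11b2, the hormone targets Sgk1, Fkbp5 and Tsc22d3, and the epithelial sodium channel genes Scnn1a, Scnn1b and Scnn1g. The genes were chosen by name, and every probe set assigned to them alone was read. This gave 20 probe sets of 45037, and 10 genes of 18193. Nr3c1 had 6 probe sets, Tsc22d3 had 4, Fkbp5 had 3 and each of the other genes had 1.

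The cells came from the mouse ES cell line EB3 of strain 129/Ola, in the version that carries GFP under the ubiquitous CAG promoter. They were grown through embryoid bodies with Activin at 10 ng/mL and sorted on day 18 with an antibody against KSP (kidney-specific cadherin, the product of Cdh16) into KSP-positive and KSP-negative cells. Both fractions share the line, the Activin and the day, and the KSP-negative cells of the same cultures served as controls, so no fraction was untreated and no corticosteroid was compared. RNA of each fraction was hybridized to 2 arrays from 2 independent experiments, 4 arrays in all. The labels do not tie the replicate numbers to the experiments. The line is a single ES cell line, and each fraction is a mixture from embryoid bodies.

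Corticosteroids cross the cell membrane and bind receptors held in the cytoplasm by chaperones, which then move to the nucleus and bind DNA at response elements. The mineralocorticoid receptor binds cortisol and corticosterone about as tightly as aldosterone. In the distal nephron and collecting duct Hsd11b2 turns these glucocorticoids into inactive 11-keto forms, while Hsd11b1 mainly works in the other direction and restores the active hormone. There aldosterone raises Sgk1, a kinase that keeps the epithelial sodium channel at the cell surface by acting on the ubiquitin ligase Nedd4-2.

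The receptor Nr3c1 and the inactivating enzyme Hsd11b2 had higher signals in the KSP-positive fraction. No member was called lower. Sgk1 was bright and nearly level across the arrays, and Scnn1a, the channel subunit that passed the filter, overlapped between the fractions. Signals are given on a log2 scale, with the 75th percentile made equal on all arrays, and a value of 3.62 is the floor to which dimmer signals were raised. Of the 10 genes, 7 passed the filter on dim probe sets, and Nr3c2, Scnn1b and Scnn1g did not and were not tested. A gene was called at an adjusted p under 0.05 from limma over 12849 genes. Of the 7 genes tested, 2 were called higher and 0 lower, where 3.49% of all genes were called in either direction, 1.84% higher and 1.65% lower. Before adjustment, limma gave a p under 0.05 to 3 higher genes and to 1 lower gene, Fkbp5, against 9.05% of all genes higher and 8.72% lower. The fractions did not overlap for 4 of the 7 genes, against 48.9% of all genes tested. The median log2 difference, KSP-positive minus KSP-negative, was 0.10 over these 7 genes and -0.03 over all genes. In bulk samples such as these, fewer cells of a type and less RNA per cell cannot be told apart. The replicates are separate experiments by the series text and the methods.

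**Figure D1:**
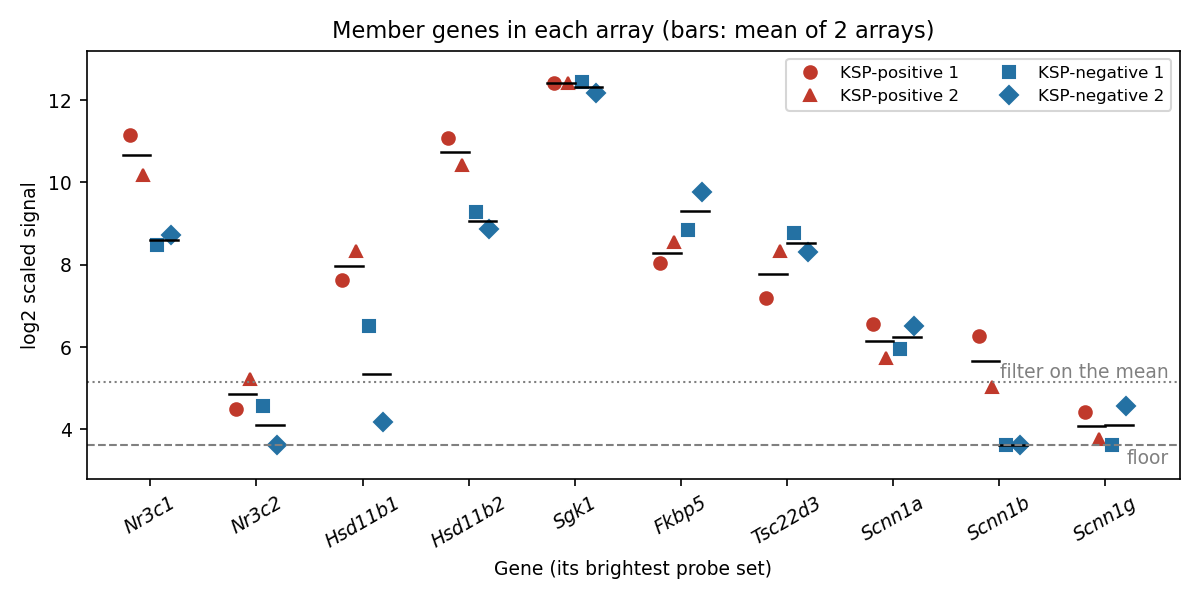
Log2 scaled signal of the brightest probe set of each of the 10 genes on the 2 KSP-positive and 2 KSP-negative arrays, with the mean of each fraction as a bar, the floor of 3.62 as a dashed line and the filter on the mean as a dotted line. Nr3c1, Hsd11b2 and Hsd11b1 had both KSP-positive arrays above both KSP-negative arrays, Fkbp5 had the opposite order, and both KSP-negative arrays of Scnn1b were at the floor.

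Nr3c1 encodes the glucocorticoid receptor, which most cell types carry. Its brightest probe set read 11.16 and 10.18 in KSP-positive replicates 1 and 2 and 8.49 and 8.73 in KSP-negative replicates 1 and 2. Both KSP-positive arrays were above both KSP-negative arrays, and the KSP-positive replicates stood further apart from each other than the KSP-negative ones. The means were 10.67 ± 0.69 and 8.61 ± 0.17 (SD, n = 2 in each fraction). The difference of 2.06 (standard error 0.40) was a 4.17-fold rise, with a 95% interval from 2.27-fold to 7.67-fold and an adjusted p of 0.0200 from limma. Without KSP-positive replicate 1 the difference was 1.57 (adjusted p = 0.0971 from limma), and without KSP-negative replicate 2 it was 2.18 (adjusted p = 0.0601), so the call was not kept when either array was left out. With no filter on dim probe sets, where no gene at all was called, its adjusted p was 0.334.

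The other probe sets of Nr3c1 differed in size and brightness. The next bright one read 10.19 and 9.67 in KSP-positive cells and 9.21 and 7.95 in KSP-negative cells, a difference of 1.35. Another read 10.29 and 9.74 against 8.74 and 7.96, a difference of 1.66. All 3 bright probe sets thus had both KSP-positive arrays on top, with the KSP-negative replicates in differing order. The remaining 3 were below the filter. Of these, 1 read 5.38 and 4.98 against 4.53 and 4.28, another read 4.67 and 3.87 with both KSP-negative arrays at the floor, and the last read 3.62 and 4.66 against 3.62 and 4.71. The last did not follow the others, its difference being -0.02. Probe sets of a gene are hybridized to the same RNA and are not replicates.

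Nr3c2 encodes the mineralocorticoid receptor, the aldosterone receptor of the distal nephron. It read 4.49 and 5.21 in KSP-positive cells and 4.57 and 3.62 in KSP-negative cells. The fractions overlapped, 1 KSP-negative array was at the floor, and the gene was below the filter, so its difference of 0.76 was not tested in the main analysis. When all genes were fitted with no filter its adjusted p was 0.633 from limma.

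Hsd11b2, the dehydrogenase that inactivates glucocorticoids and marks aldosterone-responsive cells of the kidney, read 11.08 and 10.42 in KSP-positive cells and 9.29 and 8.86 in KSP-negative cells. The fractions did not overlap, and replicate 1 was the brighter array in both. The means were 10.75 ± 0.46 and 9.07 ± 0.30 (SD, n = 2 in each fraction). The log2 difference was 1.68 (standard error 0.37), a 3.19-fold rise with a 95% interval from 1.81-fold to 5.62-fold and an adjusted p of 0.0350 from limma. This call was the less firm of the pair. It was not kept without KSP-positive replicate 1 (difference 1.35, adjusted p = 0.205), without KSP-negative replicate 2 (1.46, adjusted p = 0.157), with the values as deposited (1.58, adjusted p = 0.0726), without the intensity trend (adjusted p = 0.0711), or with no filter (adjusted p = 0.328), all from limma.

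Hsd11b1, the reductase that regenerates active glucocorticoid in liver, fat and stromal cells, read 7.62 and 8.33 in KSP-positive cells and 6.52 and 4.19 in KSP-negative cells. Both KSP-positive arrays were higher, and the KSP-negative replicates were far apart. The means were 7.98 ± 0.50 and 5.35 ± 1.65 (SD, n = 2 in each fraction). The difference of 2.62 (standard error 0.67) was the widest of the 7 genes tested, 6.16-fold with an interval from 2.22-fold to 17.1-fold, and its adjusted p of 0.0607 from limma did not pass the threshold. As deposited, the signals were 159 and 368 against 101 and 17.2, so KSP-negative replicate 2 carried much of the difference. Without that array the difference was 1.46 (adjusted p = 0.261 from limma), and without KSP-negative replicate 1 it was 3.79 (adjusted p = 0.00417). The gene was called with the values as deposited, where its adjusted p was 0.00189. Both 11-beta-hydroxysteroid dehydrogenases, which work in opposite directions on the same steroid, thus had higher mean signals in KSP-positive cells, and Hsd11b2 was the enzyme called.

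KSP-positive replicate 1 and KSP-negative replicate 2, the arrays on which the calls of Nr3c1 and Hsd11b2 rested, were also those with the higher ratio of 3' to 5' actin control signal, a sign of RNA quality. The ratio was 2.92 and 3.55 on these arrays, and 1.80 and 1.79 on KSP-positive replicate 2 and KSP-negative replicate 1. Its part in the results was not tested. Over the 12849 genes tested, each read by its brightest probe set, the log2 values correlated at 0.945 within each fraction. Between fractions they correlated at 0.856 to 0.921.

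**Figure D2:**
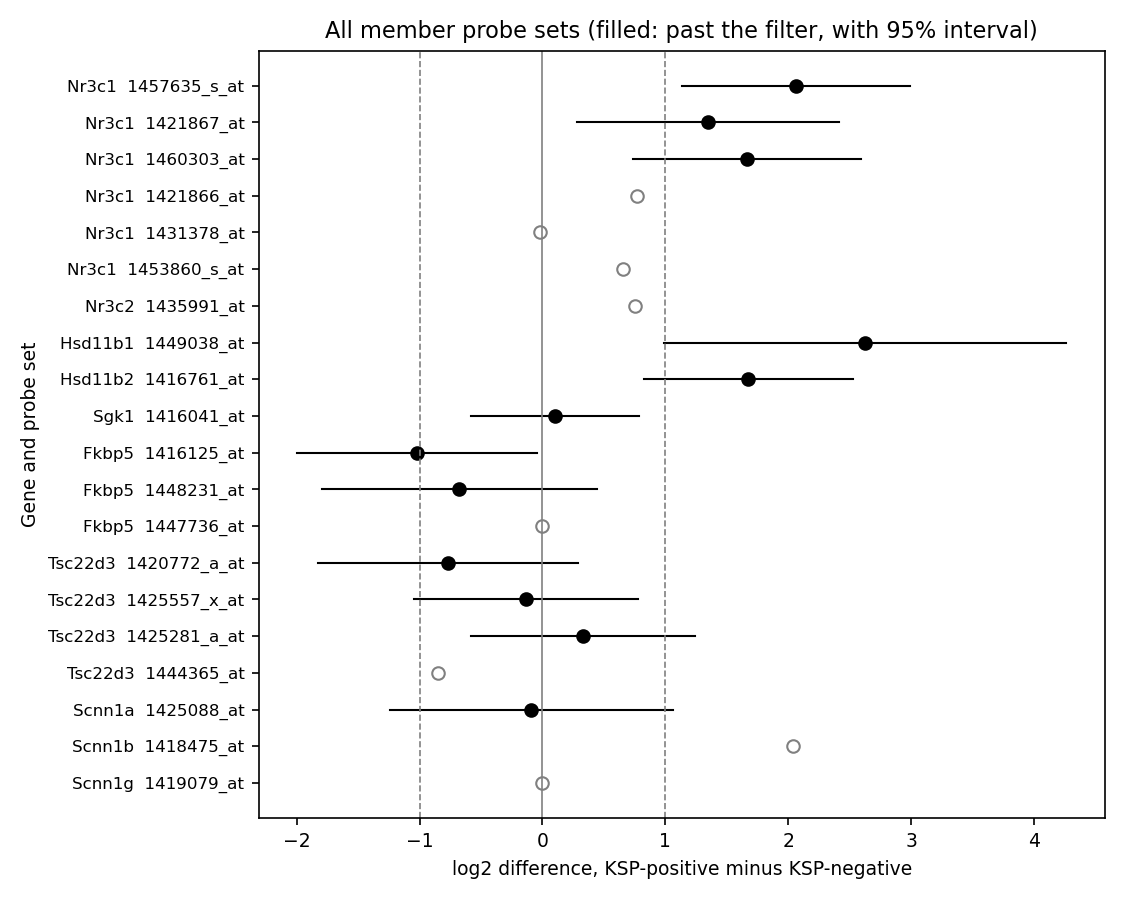
Log2 difference, KSP-positive minus KSP-negative, of the 20 probe sets of the 10 genes, grouped by gene, with filled points and 95% intervals for the 12 past the filter, open points for the others and dashed lines at 2-fold. The bright probe sets of Nr3c1 lie between 1.35 and 2.06, and those of Tsc22d3 lie on both sides of 0.

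When each probe set past the filter was fitted by itself, 12 probe sets of 7 genes were tested and 0 were called, where 0.603% of 27022 probe sets were called. The lowest adjusted p was 0.0706 from limma, for the brightest probe set of Nr3c1, and Hsd11b2 had 0.10. At an unadjusted p under 0.05 there were 6, of which 5 were higher and 1 was lower, where 6.7% of the 27022 were higher and 6.41% lower. Over all 20 probe sets, 9 had both KSP-positive arrays above the KSP-negative ones, 3 had them below and 1, of Fkbp5, lay at the floor on all 4 arrays. Over all 45037 probe sets these shares were 16.1% above and 18.3% below. Most of the 5 higher at that unadjusted p, and most of the 9, were probe sets of Nr3c1. Probe sets of a gene read the same RNA, so neither number is a count of genes.

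Sgk1, Fkbp5 and Tsc22d3 are textbook targets of corticosteroid receptors, and a promoter sequence of each is shown because they are the members through which receptor activity is commonly read. Each sequence is the 250 bases before a start site in RefSeq on GRCm38.p6, printed 5' to 3' on the strand of the gene. Capitals mark every match of the arm AGAACA on either strand, and the palindromic response element, searched as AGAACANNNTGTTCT, is a pair of such arms with 3 bases between them. The Sgk1 window, chr10:21993640-21993889 on the plus strand, holds the whole element 174 bases before its start site and 950 bases before the next start site, and a further single arm upstream of it. It lies between start sites of Sgk1, which has 6 such windows. The whole element is in this window alone, and the other Sgk1 windows hold 1 arm or none. Tsc22d3 has 3 windows, and the one shown, chrX:140600523-140600772 on the minus strand, was picked because it holds 1 arm, 179 bases before the start, while the others hold none. The Fkbp5 window, chr17:28486150-28486399 on the minus strand, holds neither and has a GC content of 68.0%, against a median of 52.4% over all windows.
Sgk1: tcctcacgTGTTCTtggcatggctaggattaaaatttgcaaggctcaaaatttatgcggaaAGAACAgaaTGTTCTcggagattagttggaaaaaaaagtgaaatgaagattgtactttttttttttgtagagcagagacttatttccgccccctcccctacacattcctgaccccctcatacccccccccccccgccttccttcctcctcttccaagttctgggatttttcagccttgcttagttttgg
Tsc22d3: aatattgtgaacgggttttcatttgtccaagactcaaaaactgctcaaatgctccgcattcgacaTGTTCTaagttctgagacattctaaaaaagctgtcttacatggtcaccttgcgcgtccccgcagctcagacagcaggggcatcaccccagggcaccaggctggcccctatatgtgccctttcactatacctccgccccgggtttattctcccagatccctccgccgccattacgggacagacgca
Fkbp5: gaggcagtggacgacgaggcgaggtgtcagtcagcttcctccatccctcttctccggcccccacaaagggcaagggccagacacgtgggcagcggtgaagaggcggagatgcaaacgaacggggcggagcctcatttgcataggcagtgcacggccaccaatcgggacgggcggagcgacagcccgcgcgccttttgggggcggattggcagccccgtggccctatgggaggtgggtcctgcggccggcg

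The whole element was found in 3 of 32851 windows, a share of 0.00913%, in Acnat2, Gm35041 and Sgk1. The single arm, which is contained in the whole element, was in 16.1% of all windows, and in 4 of the 14 windows of the 7 members that had any, all of Sgk1 or Tsc22d3. No windows were read for Hsd11b2, Nr3c1 and Scnn1a. A match is a description of the letters, and a window without a match says nothing about the receptor.

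Sgk1, the serum- and glucocorticoid-regulated kinase and the holder of the whole element above, read 12.41 and 12.42 in KSP-positive cells and 12.43 and 12.18 in KSP-negative cells. All 4 arrays lay within a narrow band and overlapped. The difference was 0.10 (standard error 0.31, 95% interval -0.58 to 0.79, adjusted p = 0.906 from limma), which leaves room for changes of up to 1.72-fold upward or down to 0.669 of the KSP-negative level. Few probe sets were brighter, its mean standing at percentile 98.7. The files give no flag for saturation. The deposited signals ran from 4373 to 6248, and the brightest and the dimmest array were both KSP-positive.

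Fkbp5, a co-chaperone that lowers the hormone binding of the glucocorticoid receptor and is raised by it, read 8.03 and 8.54 in KSP-positive cells and 8.84 and 9.77 in KSP-negative cells. The KSP-positive arrays were both lower, opposite to Nr3c1. The means were 8.29 ± 0.36 and 9.31 ± 0.66 (SD, n = 2 in each fraction), and the difference of -1.02 (standard error 0.41, 95% interval -1.93 to -0.11) had an adjusted p of 0.222 from limma. Another probe set of Fkbp5 read 5.54 and 5.20 against 6.09 and 6.0, which is the same order.

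Tsc22d3 encodes GILZ, a leucine zipper protein that carries part of the anti-inflammatory action of glucocorticoids and has several isoforms. Its brightest probe set read 7.20 and 8.33 in KSP-positive cells and 8.76 and 8.30 in KSP-negative cells. KSP-positive replicate 1 was low and the other 3 arrays overlapped, with a difference of -0.77 (standard error 0.44, 95% interval -1.74 to 0.21, adjusted p = 0.402 from limma). The remaining probe sets did not share an order. The probe set at 7.26 and 7.03 against 7.14 and 7.42 overlapped. The one at 7.32 and 7.17 against 6.95 and 6.87 was higher in both KSP-positive arrays, by 0.33 (adjusted p = 0.788 in the fit of probe sets). The dimmest, below the filter, was lower in both, at 4.55 and 4.42 against 5.14 and 5.53. The isoform read by each probe set is not given by the annotation used here.

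The epithelial sodium channel is assembled from alpha, beta and gamma subunits, encoded by Scnn1a, Scnn1b and Scnn1g. Scnn1a, the subunit needed for a working pore, read 6.55 and 5.75 in KSP-positive cells and 5.96 and 6.51 in KSP-negative cells. The fractions were interleaved, and the difference was -0.09 (standard error 0.49, 95% interval -1.18 to 1.0, adjusted p = 0.952 from limma). This interval runs from 0.442 to 2.0 times the KSP-negative level, so these arrays leave room for a change within that range.

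Scnn1b read 6.27 and 5.03 in KSP-positive cells and was at the floor of 3.62 on both KSP-negative arrays. The deposited signals were 62.3 and 37.4 against 5.18 and 6.17. As the mean of the KSP-positive arrays, Scnn1b stood 4.10-fold above this floor. Leaving out KSP-positive replicate 1 gave a log2 difference of 1.41, and leaving out replicate 2 gave 2.66. It was below the filter and not tested. With no filter its adjusted p was 0.359 from limma. The log2 difference was 2.03 at this floor, 3.18 with no floor and 0.53 with the floor at the 40th percentile. Scnn1g read 4.42 and 3.76 in KSP-positive cells and 3.62 and 4.57 in KSP-negative cells. It was near the floor throughout, overlapped, and had a difference near 0. Scnn1b and Scnn1g lie on the same strand of mouse chromosome 7, with start sites 130559 bases apart.

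**Figure D3:**
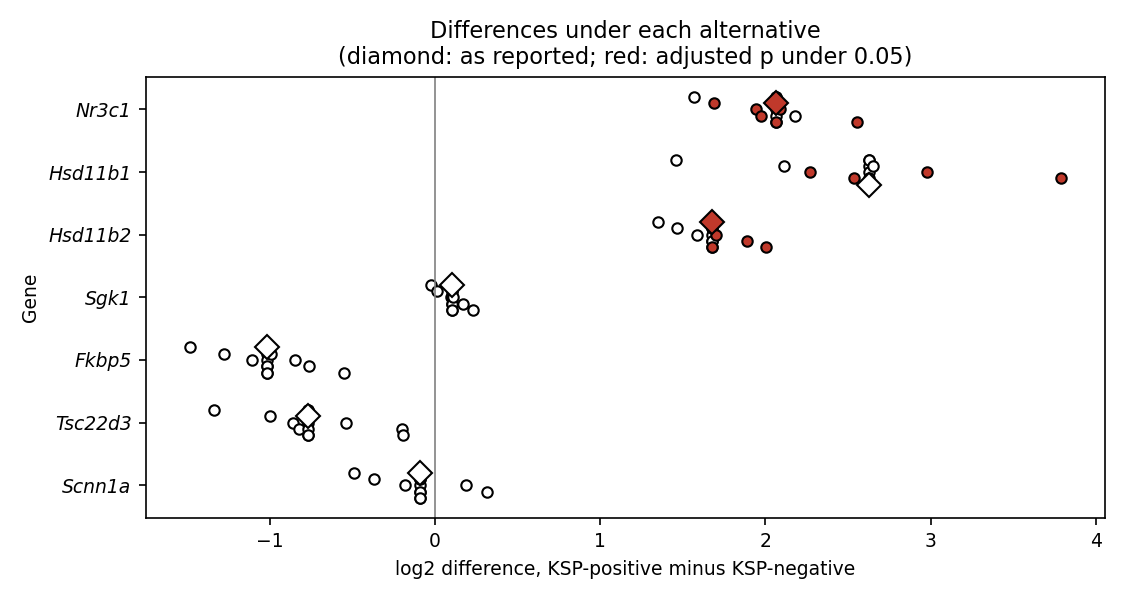
Log2 difference, KSP-positive minus KSP-negative, of the 7 tested genes under the main settings and each alternative, with a diamond for the main settings and red where the adjusted p was under 0.05. Nr3c1, Hsd11b2 and Hsd11b1 were above 0 under all alternatives shown, and Fkbp5 and Tsc22d3 below 0, while Sgk1 and Scnn1a crossed 0.

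The genes around these members were read from 5 lists. Over all genes tested, limma called 1.84% higher and 1.65% lower. In the list of steroid synthesis and its control, 6 of 14 genes on the array were tested and 1 fell. Nr0b1 encodes the DAX1 repressor, which acts on steroid-producing genes and is also known from pluripotent cells. It read 4.07 and 3.78 in KSP-positive cells and 7.0 and 8.73 in KSP-negative cells, a fall by 3.94 on the log2 scale (standard error 0.60, adjusted p = 0.00821 from limma). The KSP-positive values lay near the floor, and the gene passed the filter through the KSP-negative cells, so the size depends on the floor. A floor at the 40th percentile gave -2.65. With 1 array left out the difference ran from -4.80 without KSP-negative replicate 1 to -3.07 without KSP-negative replicate 2, where the adjusted p was 0.0698. H6pd, the enzyme that feeds NADPH to Hsd11b1, had a difference of 0.76 (adjusted p = 0.323), and Cyp11a1, the side-chain cleavage enzyme, had -0.97 (adjusted p = 0.382). The median over the 6 genes was -0.49.

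Among chaperones and coregulators of the receptors, all 18 genes on the array were tested and limma called 0, with a median difference of -0.12. At an unadjusted p under 0.05 from limma there were 3, 1 higher and 2 lower, against 9.05% and 8.72% of all genes. Fkbp4, the co-chaperone whose action on the receptor opposes that of Fkbp5, had a difference of -1.33 (adjusted p = 0.0879 from limma). Ncoa1, a coactivator, had 1.09 (adjusted p = 0.178). Fkbp4 and Fkbp5 thus had lower mean signals in KSP-positive cells, and neither was called.

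Of 32 other genes known to be raised by glucocorticoids, 29 were tested, 1 rose and 1 fell, and the median difference was 0.15. Cebpd, a transcription factor of the acute phase and of fat cell differentiation, read 9.19 and 9.62 in KSP-positive cells and 8.03 and 7.31 in KSP-negative cells, a 3.32-fold rise (difference 1.73, adjusted p = 0.0386 from limma). Zbtb16, the PLZF repressor, read 6.83 and 6.13 against 8.76 and 8.38, a 4.26-fold fall (-2.09, adjusted p = 0.0207). Neither call was kept without KSP-negative replicate 2 (adjusted p = 0.204 for Cebpd and 0.0823 for Zbtb16, from limma). Cebpd was not kept without KSP-positive replicate 2 either (0.0806), nor Zbtb16 without KSP-negative replicate 1 (0.0721). With the probe sets of a gene averaged, the difference was 0.92 for Cebpd (adjusted p = 0.182) and -1.66 for Zbtb16 (adjusted p = 0.106), and neither was called. The fractions did not overlap for 18 of the 29, 9 of them higher in KSP-positive cells and 9 lower. Among all genes tested 48.9% did not overlap. The targets had no common direction. No corticosteroid was compared, and receptor activity in these cells was not tested. Lcn2 and Cd163 were at the floor on all 4 arrays.

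Of the regulators of Sgk1 and the channel, 32 were tested, 5 fell and 0 rose in limma, with a median of -0.28. At an unadjusted p under 0.05 from limma, 9 were lower and 1 was higher, against 8.72% and 9.05% of all genes. All 5 called genes were membrane-bound serine proteases or their inhibitors. Prss8, known as channel-activating protease, read 5.30 and 4.90 in KSP-positive cells and 7.61 and 7.92 in KSP-negative cells, a 6.35-fold fall (adjusted p = 0.0111 from limma). Its KSP-positive mean of 5.10 was under the filter, which the gene passed through the KSP-negative cells. St14, the matriptase that acts upstream of Prss8, read 6.65 and 7.29 against 9.25 and 10.20, a 6.74-fold fall (adjusted p = 0.00848). Tmprss2, a related protease, read 8.04 and 7.56 against 10.15 and 10.44, a 5.65-fold fall (adjusted p = 0.00625). Other proteases of the list were not called, Plat having a difference of 0.64, Tmprss4 0.37 and Furin 0.03, and Plau, at 0.33, was below the filter. Spint2, a Kunitz inhibitor of these proteases, read 7.94 and 9.57 against 11.36 and 12.00, a 7.62-fold fall (adjusted p = 0.0127), and Spint1, a like inhibitor named after its value was seen, fell 3.45-fold (adjusted p = 0.0313). Nedd4l, which encodes the ligase Nedd4-2, had a difference of -0.45 and was not called (adjusted p = 0.566). Without KSP-negative replicate 2, Tmprss2 was the gene still called (adjusted p = 0.0377 from limma), and the other 4 had adjusted p values from 0.0661 for St14 to 0.201 for Spint1.

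**Figure D4:**
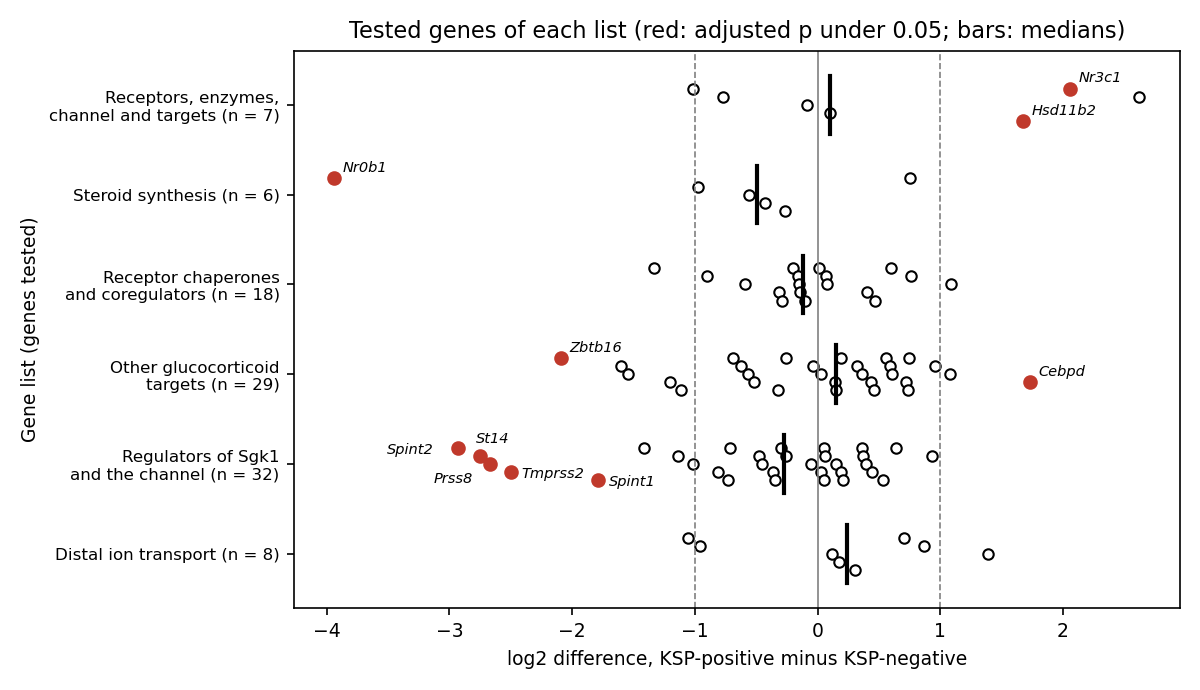
Log2 difference, KSP-positive minus KSP-negative, of the tested genes of the 10 members and of the 5 lists around them, 1 point a gene, with list medians as bars, red points for adjusted p under 0.05 and dashed lines at 2-fold. The 5 called regulators of the channel lie between -2.93 and -1.79, and the uncalled ones lie closer to 0.

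Of 19 genes of distal ion transport on the array, 8 were tested and limma called 0. An unadjusted p under 0.05 was found for 3, 1 higher and 2 lower, against 9.05% and 8.72% of all genes. Slc8a1, a sodium-calcium exchanger, had a difference of 1.39 (adjusted p = 0.13 from limma) and Trpm6, a magnesium channel, had -1.06 (adjusted p = 0.271). Slc12a3, the thiazide-sensitive cotransporter, and Kcnj1, the ROMK potassium channel, were at the floor on all 4 arrays.

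The markers of cells in which Hsd11b2, Nr3c2 and the channel commonly act together were mostly dim. Of 11 principal and distal cell markers on the array 9 were below the filter, and 0 of the 2 tested were called by limma (0 at an unadjusted p under 0.05). Their summed scaled signal was 378 to 474 in KSP-positive cells and 455 to 477 in KSP-negative cells. Slc12a3 and Umod were at the floor on every array, and Aqp2, the water channel of principal cells, read 4.72 and 4.82 against 5.23 and 4.84. The 2 tested were Gata3, at 7.49 and 6.83 against 7.22 and 6.02, and Aqp3, at 5.22 and 6.37 against 6.99 and 6.74. Cdh16, the gene of the sort antigen, read 5.66 and 5.03 against 5.30 and 4.71 and was not called (difference 0.34, adjusted p = 0.816 from limma).

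Markers of other cells moved between the fractions together with Nr3c1 and Hsd11b2. Their counts stand against 1.84% of all genes called higher and 1.65% called lower. Of 21 mesenchymal markers tested 8 rose and 0 fell, and their summed signal was 93524 to 129600 in KSP-positive and 39125 to 58461 in KSP-negative cells. Of 18 macrophage markers tested 15 rose, with sums of 15745 to 33114 against 3229 to 3326. Of 20 epithelial markers tested 11 fell, among them Spint2 of the list above, with sums of 9392 to 12242 against 28177 to 37707, and of 20 pluripotent cell markers 17 fell, with sums of 9903 to 11235 against 24973 to 42884. None of these 4 lists had a marker at the floor on all arrays. The means of C1qa (3.62), C1qc (4.34) and Fcgr1 (3.90) in KSP-negative cells were under the filter of 5.14. So were those of Nanog (3.98), Fgf4 (3.73) and Utf1 (4.61) in KSP-positive cells. These called markers passed the filter through the fraction in which they were bright. Stress genes of cell dissociation share Dusp1 with the glucocorticoid targets and Dnajb1 with the chaperones. Limma called 0 of the 22, and their sums were 73619 to 79929 against 56172 to 56568. An unadjusted p under 0.05 was found for 9, of which 8 were higher, against 9.05% of all genes higher and 8.72% lower. Without KSP-negative replicate 2 fewer markers were called in each of the mesenchymal, macrophage, epithelial and pluripotent lists. The share of all genes called in that fit is not given here. The part of these cells in the differences of Nr3c1, Hsd11b1, Hsd11b2, Nr0b1 and the proteases was not tested.

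**Figure D5:**
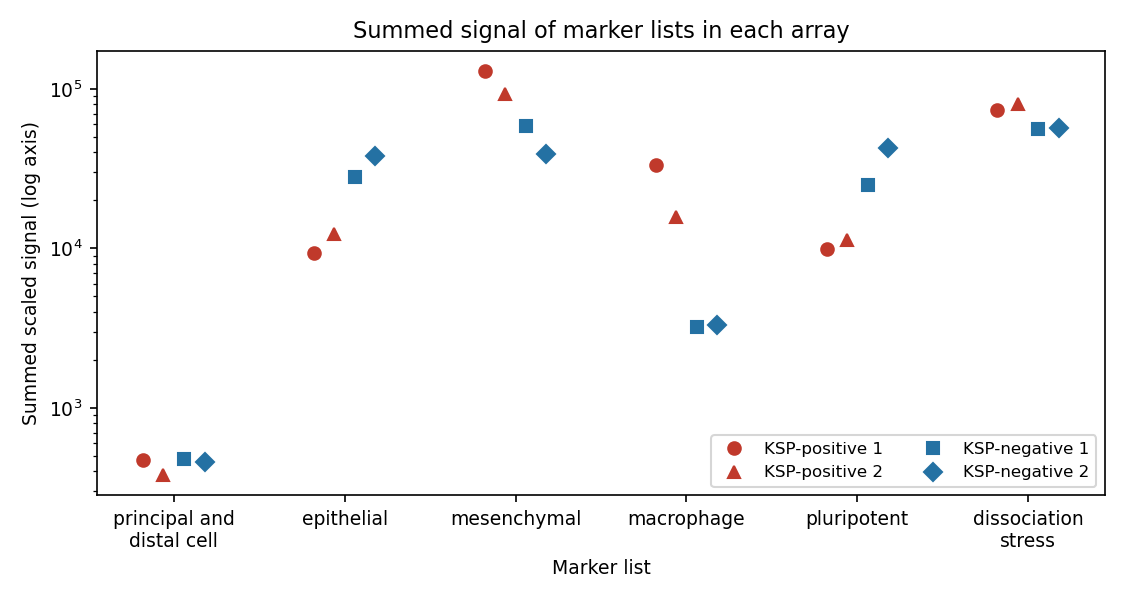
Summed scaled signal of each marker list on the 2 KSP-positive and 2 KSP-negative arrays, on a log axis. The sums of the mesenchymal and macrophage lists were higher on both KSP-positive arrays, those of the epithelial and pluripotent lists were lower, and those of the principal and distal cell list overlapped.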

How the data were processed

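Total RNA of 2 KSP-positive and 2 KSP-negative samples was purified with the RNeasy Mini kit, labelled with biotin and put on Affymetrix mouse genome arrays. The authors deposited linear signal intensities, 1 per probe set and array, made with MAS5 per the labels. The GeneSpring settings of the authors are not given in the sources used here.

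Each array was scaled to the mean 75th percentile (factors from 0.874 to 1.24). A floor was set at the overall 20th percentile (signal 12.3), touching 16.8% to 22.9% of the probe sets of an array, and log2 was taken. Probe sets whose mean log2 signal passed 5.14, the 40th percentile, were kept, and the brightest probe set of a gene stood for it. The comparison used limma 3.58.1 in R 4.3.3 (empirical Bayes with an intensity trend, Benjamini-Hochberg over 12849 genes), which was tested on simulated data. An exact permutation of 2 against 2 arrays reaches no p below 0.333 and was not used. The number of arrays limits the precision.

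The members and lists were chosen with earlier results of these data known. Named genes were all members, up to 4 genes a list and direction past the threshold by smallest adjusted p, and, in lists with fewer than 2 such genes, the 2 with the largest difference. Nedd4l, Aqp2, Aqp3, Gata3, other proteases, genes at the floor and called markers under the filter in a fraction were named besides. Genes that share all their probe sets were not analysed here. Alternatives were the unscaled deposited values, quantile normalization, other floors and filters, averaged probe sets, no intensity trend, the methods' t-test, the replicate block, and each array left out, with the remaining array of that fraction assumed to vary as the other fraction does.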

Additional observations from a re-analysis of the deposited data

How the results depend on the processing

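The differences of Nr3c1 (1.57 to 2.55), Hsd11b2 (1.35 to 2.00), Hsd11b1 (1.46 to 3.79), Fkbp5 (-1.49 to -0.55) and Tsc22d3 (-1.34 to -0.19) kept their direction under every alternative run. Nr3c1 was called under 10 of 14 alternatives, Hsd11b2 under 8 of 14 and Hsd11b1 under 5 of 13. Hsd11b1 was below the filter at the 60th percentile and not fitted there. The difference of Sgk1 ran from -0.023 to 0.23 with 1 array left out, turning without KSP-negative replicate 2. That of Scnn1a ran from -0.49 to 0.31, turning without KSP-positive replicate 2 (0.31) and KSP-negative replicate 2 (0.19).

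The number of member genes called higher, 2, was 0 with no filter, 1 without the intensity trend and 0 with the methods' t-test, adjusted or not, and ran from 0 to 3 with 1 array left out (0 without KSP-negative replicate 2, 1 without KSP-positive replicate 1). With no filter limma called 0 of 18193 genes, 2275 having an unadjusted p under 0.05. Member genes called lower stayed at 0 throughout, and ran from 0 to 0 with 1 array left out. Member probe sets called, 0, were 0 to 2 with 1 array left out. List genes called higher, 1, were 0 with the values as deposited, no filter, averaged probe sets, no intensity trend or the adjusted t-test, 2 with quantile normalization, 4 with the unadjusted t-test, and 0 to 1 with 1 array left out. List genes called lower, 7, were 0 with no filter or the adjusted t-test and 1 to 9 with 1 array left out, the 1 being without KSP-negative replicate 2. The causes were not tested.

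No source ties the replicate numbers to experiments, so same-numbered replicates were not paired. The difference of replicate 1 from replicate 2 in KSP-positive cells correlated at 0.166 with that in KSP-negative cells, over the 12849 genes tested. This value does not settle whether same-numbered replicates came from the same experiment. With the replicate block, 3 member genes were called higher (Nr3c1, adjusted p = 0.00265, Hsd11b2, 0.00399, and Hsd11b1, 0.0160, from limma), 5 member probe sets were called, and 12 list genes were lower. The share of all genes called with the block is not given here, so these counts have no background beside them. List genes called in the main fit also had lower adjusted p values with the block, St14 for example 0.000279 from limma.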
